A study of Mus musculus with 12 samples.

Results

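Messenger RNA levels of voltage-gated sodium channel subunits were measured in atria and ventricles of a mouse model of myotonic dystrophy type 1. The 8 genes, Scn10a, Scn1a, Scn3a, Scn4a, Scn7a, Scn2b, Scn3b and Scn4b, were picked out by gene symbol from the 51734 symbols of the count table, by a rule that names the genes and sets no threshold on their values, and are only some of the genes of this family. Each of the 8 had counts in at least 1 library, and 7 had enough counts to be tested, with Scn1a the exception. CUG960 +dox mice were FVB females, homozygous for the TREDT960I transgene, which holds 960 interrupted CTG repeats within human DMPK exons, and hemizygous for MHCrtTA, a doxycycline-dependent transactivator driven by the α myosin heavy chain promoter, so that repeat RNA was made in cardiomyocytes and not in other heart cells. Control mice were FVB females hemizygous for MHCrtTA without the repeat transgene, and came from a separate cross, so that the genotypes were not littermates. Both genotypes received dox from postnatal day 1 and were 10 weeks old. Atria and ventricles of 3 CUG960 +dox mice (V119, V120 and V123) and 3 MHCrtTA +dox controls (V327, V333 and V334) gave 12 libraries, 3 in each of 4 groups.

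A voltage-gated sodium channel opens on depolarization and carries the inward current that drives the upstroke and the spread of the action potential. It is built from a large α subunit, which alone forms the pore with its voltage sensors and inactivation gate, and smaller β subunits, single-pass membrane proteins with an immunoglobulin-like domain that tune gating and surface level and take part in cell adhesion. In the heart, current size and gating set conduction velocity, and slowed conduction is part of the cardiac disease of myotonic dystrophy. Of the genes measured, Scn10a, Scn1a, Scn3a, Scn4a and Scn7a encode α subunits, and Scn2b, Scn3b and Scn4b encode β subunits. The libraries were made to ask which transcripts change when expanded CUG RNA is expressed in each chamber, and here the sodium channel subunits were compared between genotypes within a chamber, between chambers within a genotype, and for a difference between chambers in the change.

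Totals lay between 116127966 and 160676189 counts per library. Levels are given as CPM, CPM being counts scaled to the library total with factors by trimmed mean of M values (TMM) over all 12 libraries, and as mean ± SD over 3 mice. A gene was called changed when it differed by 1.5-fold or more with an adjusted P value below 0.05 in edgeR's quasi-likelihood test, adjusted over every gene tested. The chamber labels were checked against marker genes. Myl7, the atrial myosin light chain, had a mean of 2841 CPM in control atria and 10.8 CPM in control ventricles, and Myl2, the ventricular light chain, had 18.0 CPM in control atria and 9407 CPM in control ventricles. Myl7 was at 2910 and 18.8 CPM and Myl2 at 9.63 and 9680 CPM in CUG960 atria and ventricles, so that the means went with the labels in both genotypes. V123 ventricles stood apart, with 55.9 CPM of Myl7 beside 0.192 and 0.304 in V119 and V120 ventricles and 4.98 to 19.3 in control ventricles. Without V123 the log2 fold change in ventricles was −1.99 for Scn10a and −0.85 for Scn4a, and both were still called (adjusted P values 0.00118 and 0.00991). V327 atria had the most Myl2, at 33.5 CPM beside 8.82 to 11.7 CPM in the other atria. In bulk tissue, fewer cells of a type and less RNA per cell cannot be told apart, and this holds for each level below.

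The genes lie on 3 chromosomes of the GRCm38 mouse genome. Scn10a is on the minus strand at chr9:119608456-119719322, Scn4a on the minus strand at chr11:106318592-106353288, and Scn3a, Scn1a and Scn7a on the minus strand of chromosome 2 at chr2:65457118-65567627, chr2:66270778-66440840 and chr2:66673425-66784914. The 3 β subunit genes among the 8 are on the plus strand of chromosome 9, with Scn3b at chr9:40269217-40291618, Scn2b at chr9:45117782-45130070 and Scn4b at chr9:45138395-45154152. Scn2b ends 8324 bases before the start of Scn4b, the closest pair among the 8 genes.

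The α subunits are alike in sequence, so reads had to be kept apart between genes. Over whole GENCODE M21 transcripts, runs of 50 bases found also in another gene made up 1.66% of Scn10a, 0.072% of Scn4a, 4.03% of Scn1a and 6.49% of Scn3a, and none of Scn7a, Scn3b or Scn4b. Scn2b shared 0.795% of its runs. Counts of Scn1a and Scn3a, which had 287 such runs in common, are the ones that read assignment could most affect. The annotation places 1 gene on the opposite strand over each of Scn1a, Scn3a, Scn2b and Scn3b. The libraries were prepared with a stranded kit, but the strand setting used in counting is not given in the sources used here, so counts of these 4 genes may hold reads of their opposite-strand partners.

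Levels were ordered within each group as CPM per kb of merged exon length. In control ventricles, Scn4b, the β4 subunit, was the most abundant at 21.9 CPM per kb. Scn4a, the α subunit of adult skeletal muscle, followed at 4.85, and Scn7a, an atypical sodium-sensing α subunit known from glia and connective tissue, at 3.78, and these 2 genes overlapped between libraries. Scn10a, Scn2b and Scn3b came next at 0.394, 0.297 and 0.223 CPM per kb, each overlapping with its neighbor in the order, and Scn3a was at 0.147. In control atria the order began with Scn7a at 6.03 CPM per kb, then Scn4a at 2.79, Scn4b at 0.987 and Scn10a at 0.614, with no overlap between neighbors. Scn2b, Scn3b and Scn3a followed at 0.213, 0.142 and 0.0455 CPM per kb. Scn1a was last in each of the 4 groups.

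The order by mean differed in CUG960 +dox mice. In ventricles, Scn7a and Scn4a and also Scn3b and Scn2b changed places, but each pair overlapped in both genotypes. In atria, Scn4b stood at 2.95 CPM per kb and Scn4a at 2.41, and the libraries of these genes overlapped, whereas in control atria every library had more Scn4a than Scn4b per kb. In CUG960 ventricles, Scn10a stood at 0.0868 CPM per kb, below Scn2b and Scn3b, and overlapped with Scn3a at 0.0918, whereas in control ventricles its mean was above those of these 3 genes. The order within each group was the same when the longest transcript was used as the length.

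**Figure D1:**
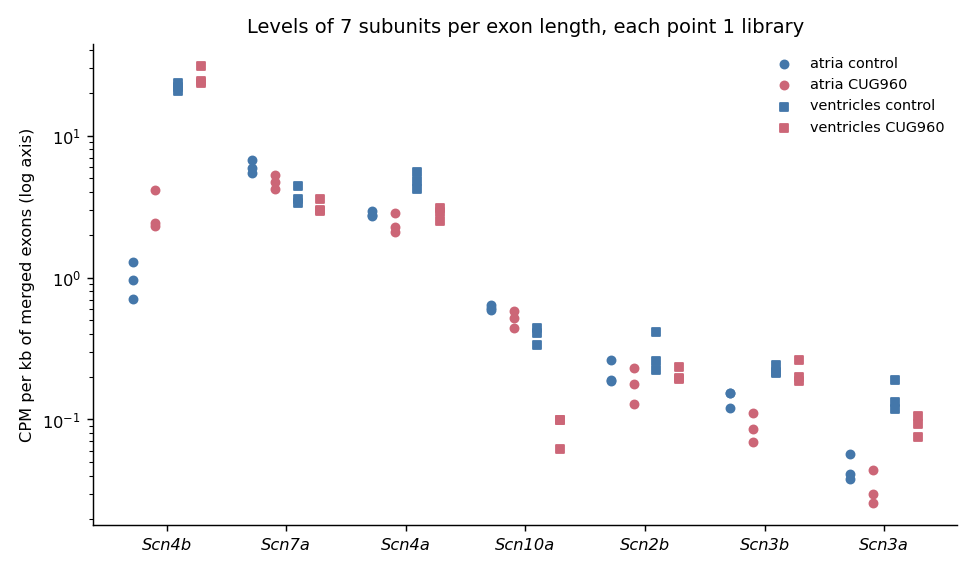
Level of 7 subunits in CPM per kb of merged exons on a log axis, with each point a library, circles for atria, squares for ventricles and color for genotype. Scn4b spans the widest range, from under 1.5 CPM per kb in control atria to over 20 in ventricles of both genotypes, and Scn10a is lowest in CUG960 ventricles.

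Between genotypes, 3 of the subunits were called changed, each in 1 chamber. Scn10a and Scn4a fell in ventricles, and Scn4b rose in atria. This was 1 of the 7 members tested in atria, where 969 of 17650 genes (5.49%) were called, and 2 of 7 in ventricles, where 804 of 16909 genes (4.75%) were called. The members' median log2 fold change was −0.26 in atria and −0.52 in ventricles, beside −0.01 over all genes tested in each chamber, and 6 of 7 were below 0 in each. With 1 or 2 genes called of 7, these counts say little about the members as a group.

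Scn10a encodes the α subunit of a tetrodotoxin-resistant channel of sensory neurons, and variants at its locus are associated with the PR and QRS intervals in people. In ventricles of MHCrtTA +dox controls it had 3.25 CPM in V327, 3.51 in V333 and 2.66 in V334, from 360, 370 and 298 counts. The CUG960 +dox ventricles had 0.789 CPM in V119, 0.790 in V120 and 0.496 in V123, from 115, 109 and 62 counts. The highest CUG960 library was thus far below the lowest control library. From 3.14 ± 0.438 CPM the mean fell to 0.691 ± 0.170 CPM, 4.53-fold lower, and the log2 fold change was −2.18 ± 0.22 (standard error, SE) at an adjusted P value of 0.000505. In atria, Scn10a had 4.86, 5.10 and 4.71 CPM in controls V327, V333 and V334, and 4.66, 4.11 and 3.49 CPM in V119, V120 and V123. All CUG960 atria were below all control atria, but by a small margin, and the log2 fold change was −0.26 ± 0.13 (SE) at an adjusted P value of 0.207.

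Neuronal, glial and conduction system markers were read beside Scn10a in ventricles. Of 16 markers of Schwann cells and neurons, 11 were tested, of which 2 fell, among them Dbh, an enzyme of noradrenaline synthesis, and 1, Uchl1, a neuronal ubiquitin hydrolase, rose. Of the 11, 10 were below 0, with a median log2 fold change of −0.56 beside −0.01 over all genes, 8 had an unadjusted P value under 0.05, beside 25.7% of all genes, and DESeq2 called 4. Of all genes, edgeR called 4.75% and DESeq2 5.65%. The whole list summed to 45.9, 47.2 and 46.8 CPM in control ventricles and 37.6, 49.9 and 49.4 CPM in V119, V120 and V123 ventricles, and overlapped. Uchl1 was the most abundant, and without it the markers summed to 32.5, 31.9 and 32.3 CPM in control ventricles and 17.3, 18.8 and 24.3 CPM in CUG960 ventricles. Dbh went from 3.87 ± 0.758 to 1.38 ± 0.571 CPM (log2 fold change −1.48, adjusted P value 0.0110). Chat and Slc18a3, which define cholinergic neurons, were at 0 counts in all 12 libraries, and Th, an enzyme of noradrenergic neurons, reached at most 15 counts. In atria Scn10a was not called. Of 12 markers of the same list tested there, 2 were called, Dbh and Mbp, both lower, beside 5.49% of all genes. The list without Uchl1 summed in atria to 51.0, 52.4 and 57.3 CPM in controls and 38.2, 35.0 and 37.4 CPM in CUG960 +dox mice. Markers of the ventricular conduction system summed to 41.4, 38.6 and 46.6 CPM in control ventricles and 46.8, 41.1 and 36.2 CPM in CUG960 ventricles, overlapping between genotypes, with 1 of 5 tested, Sema3a, called higher. The part of the nerve markers in the fall of Scn10a was not tested.

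Scn4a encodes the sodium channel of adult skeletal muscle fibers and was the most abundant of these 5 α subunits per kb in control ventricles by mean. Its level in control ventricles was 33.8 CPM in V327, 29.5 in V333 and 39.0 in V334, and in CUG960 ventricles 17.6 in V119, 20.2 in V120 and 21.8 in V123. The genotypes did not overlap, and CUG960 ventricles came down to the level of control atria, which had 20.7, 19.01 and 19.4 CPM. In ventricles the mean went from 34.1 ± 4.76 down to 19.9 ± 2.12 CPM, 1.72-fold lower, and the log2 fold change was −0.78 ± 0.12 (SE) at an adjusted P value of 0.00478. In CUG960 atria, V119 had 14.6 CPM, V120 had 16.04 and V123 had 20.2. V123 lay within the control range, and the log2 fold change of −0.21 was not called (adjusted P value 0.249).

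Among 9 skeletal muscle markers, 5 were tested in ventricles and 2 were called, beside 4.75% of all genes. DESeq2 called 2, beside 5.65%. Of the 5, 3 had an unadjusted P value under 0.05, beside 25.7% of all genes, and the median log2 fold change was 0.08. Mybpc2, a myosin-binding protein C of fast skeletal fibers, made up most of the list's sum. It fell from 71.7 ± 5.15 to 15.1 ± 3.04 CPM (log2 fold change −2.24, adjusted P value 4e-05). Pvalb, a calcium buffer of fast fibers, rose from 0.0157 to 0.266 CPM on average. This rested on few counts, 1, 4 and 0 in V327, V333 and V334 ventricles and 62, 27 and 22 in V119, V120 and V123 ventricles. The sum was 76.7, 67.0 and 74.7 CPM in control ventricles and 13.3, 18.1 and 18.6 CPM in CUG960 ventricles. Without Mybpc2 it was 1.10, 1.13 and 1.03 CPM in controls and between 1.40 and 1.65 CPM in the 3 CUG960 +dox mice. The control sums were thus the lower ones, and the rise of Pvalb is part of that difference. The fast skeletal myosins Myh1, Myh2 and Myh4 had at most 14, 15 and 6 counts in any library, beside at least 2097 counts of Scn4a. In atria 5 were tested and 2 were called, Mybpc2 and Tnnt3, both lower, beside 5.49% of all genes. DESeq2 called 2, beside 5.90%. Of these 5, 2 had an unadjusted P value under 0.05, beside 30.2% of all genes, and the median log2 fold change was −0.63. The whole list there summed to 18.2, 20.4 and 21.8 CPM in controls and 6.14, 8.22 and 5.99 CPM in CUG960 +dox mice. Without Mybpc2 the atrial sums were 4.11, 3.37 and 3.37 CPM in controls and 2.87, 2.82 and 2.35 CPM in CUG960 +dox mice. In atria the control sums were thus the higher ones. The part of these markers in the fall of Scn4a was not tested.

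Scn7a was the most abundant in atria of the 5 α subunits among the 8 genes. It had 39.8, 43.7 and 49.3 CPM in control atria and 31.1, 34.6 and 39.0 CPM in CUG960 atria in the order V327, V333, V334 and V119, V120, V123. The groups did not overlap, but the highest CUG960 and the lowest control library were less than 1 CPM apart, and the log2 fold change of −0.35 missed the threshold (adjusted P value 0.0608). In ventricles it went from 27.8 ± 4.09 to 23.3 ± 2.61 CPM with overlap (adjusted P value 0.233). Fibroblast markers, 8 genes led by Dcn, summed to 2245, 2584 and 2625 CPM in control atria and 2126, 2214 and 1888 CPM in CUG960 atria, without overlap. In atria 1 of them, Postn, was called lower by edgeR and DESeq2 called 1, beside 5.49% and 5.90% of all genes. All 8 were below 0 with a median log2 fold change of −0.33 beside −0.01 over all genes. Of the 8, 7 had an unadjusted P value under 0.05, beside 30.2% of all genes. In ventricles the fibroblast sums overlapped, and edgeR and DESeq2 called 0 of 8, beside 4.75% and 5.65% of all genes. There 2 had an unadjusted P value under 0.05, beside 25.7% of all genes. The part of the fibroblast markers in the values of Scn7a was not tested.

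Scn3a and Scn1a, best known as neuronal α subunits of the embryonic and adult brain, were rare. Scn3a had 1.48, 1.66 and 2.37 CPM in ventricles of V327, V333 and V334 and 1.32, 0.942 and 1.17 CPM in ventricles of V119, V120 and V123. The groups did not overlap, yet the log2 fold change of −0.68 did not pass edgeR's test (adjusted P value 0.0923). DESeq2 put it past the threshold (adjusted P value 0.0402). In atria Scn3a was at 0.567 ± 0.128 CPM in controls and 0.415 ± 0.121 CPM in CUG960 +dox mice (adjusted P value 0.321). Scn1a had 5, 2 and 6 counts in control atria, 2, 10 and 0 in CUG960 atria, 0, 1 and 0 in control ventricles, and 5, 4 and 4 in CUG960 ventricles. A count of 0 allows up to 3 counts at these depths, and Scn1a was too rare for a fold change or test.

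Scn4b, the β4 subunit, binds the α subunit through a disulfide bond and can block the open pore through its short intracellular tail. In control atria it had 6.42 CPM in V327, 3.53 in V333 and 4.80 in V334, and in CUG960 atria 12.1 in V119, 11.5 in V120 and 20.5 in V123. Every CUG960 library was above every control library, with V123 the highest. The atrial mean thus rose 2.99-fold, to 14.7 ± 5.05 from 4.92 ± 1.44 CPM, and the log2 fold change was 1.58 ± 0.27 (SE) at an adjusted P value of 0.00809. The ventricular level was far above that of atria. It was 109, 102 and 116.4 CPM in controls and 117, 121 and 154 CPM in V119, V120 and V123. These groups did not overlap either, but the log2 fold change of 0.26 was not called (adjusted P value 0.173).

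Since Scn4b is mainly ventricular, ventricular and nodal markers were read beside its rise in atria. Myl2 and Myl3, the ventricular light chains, were at 18.0 and 11.9 CPM in control atria and at 9.63 and 8.13 CPM in CUG960 atria, beside 9407 and 5894 CPM in control ventricles. The control means rested on V327 atria, and without that library they were 10.3 and 7.51 CPM, while Scn4b, which was also highest there among controls, had a log2 fold change of 1.81 without it (adjusted P value 0.0132). Irx4, a ventricular transcription factor, was under 0.04 CPM in atria of both genotypes. Of the 5 ventricular markers, Myh7, the slow myosin heavy chain, gave most of the sum in atria, with 1060 CPM in controls and 1244 CPM in CUG960 +dox mice. The summed list was 1160, 1062 and 1052 CPM in control atria and 1387, 1252 and 1152 CPM in CUG960 atria, and overlapped. Of 4 tested there, 1 was called, Hey2, which was lower, and 3 were below 0, with a median log2 fold change of −0.61. Over all genes tested in atria, 5.49% were called and the median was −0.01. Of 8 sinoatrial node markers tested in atria, Hcn4, the pacemaker channel, and Vsnl1, a calcium sensor, also rose, and the list summed to 185, 179 and 153 CPM in controls and 217, 213 and 222 CPM in CUG960 +dox mice. Most of that sum came from Cacna2d2 and Smoc2, and Isl1, a defining nodal factor, had at most 11 counts. Of the 8 nodal markers tested, 5 were below 0, with a median log2 fold change of −0.14. An unadjusted P value under 0.05 was found for 5 of the 8, beside 30.2% of all genes, and DESeq2 called 3, beside 5.90%. Hcn4 was also higher in CUG960 ventricles, at 14.2 ± 6.64 beside 6.55 ± 1.84 CPM in controls. It was not called there (log2 fold change 1.12, adjusted P value 0.0519). The part of these markers in the rise of Scn4b was not tested.

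The other 2 β subunits among the 8 genes were rare and did not pass the test in either chamber. Scn3b, the β3 subunit, which associates with the channel without a covalent bond, had 0.661, 0.833 and 0.835 CPM in control atria and 0.377, 0.604 and 0.471 CPM in CUG960 atria in the order given above. The groups did not overlap, and the log2 fold change of −0.68 had an adjusted P value of 0.0916. In ventricles it was at 1.22 ± 0.0804 and 1.17 ± 0.217 CPM (log2 fold change −0.05). Scn2b, the β2 subunit, which is disulfide linked like β4, went from 0.994 ± 0.205 to 0.833 ± 0.237 CPM in atria and from 1.38 ± 0.464 to 0.964 ± 0.107 CPM in ventricles, with adjusted P values of 0.546 and 0.235. Control ventricles of V334 were the highest for both Scn2b, at 1.91 CPM, and Scn3a.

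The genotypes did not overlap for 4 of the 7 members tested in atria, Scn10a, Scn7a, Scn3b and Scn4b, beside 35.7% of all genes tested. In ventricles they did not overlap for 4 of 7, Scn10a, Scn3a, Scn4a and Scn4b, beside 31.2% of all genes. For a single gene without overlap, an exact two-sided permutation test of 3 mice against 3 gives p = 0.1, the smallest it can give.

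**Figure D2:**
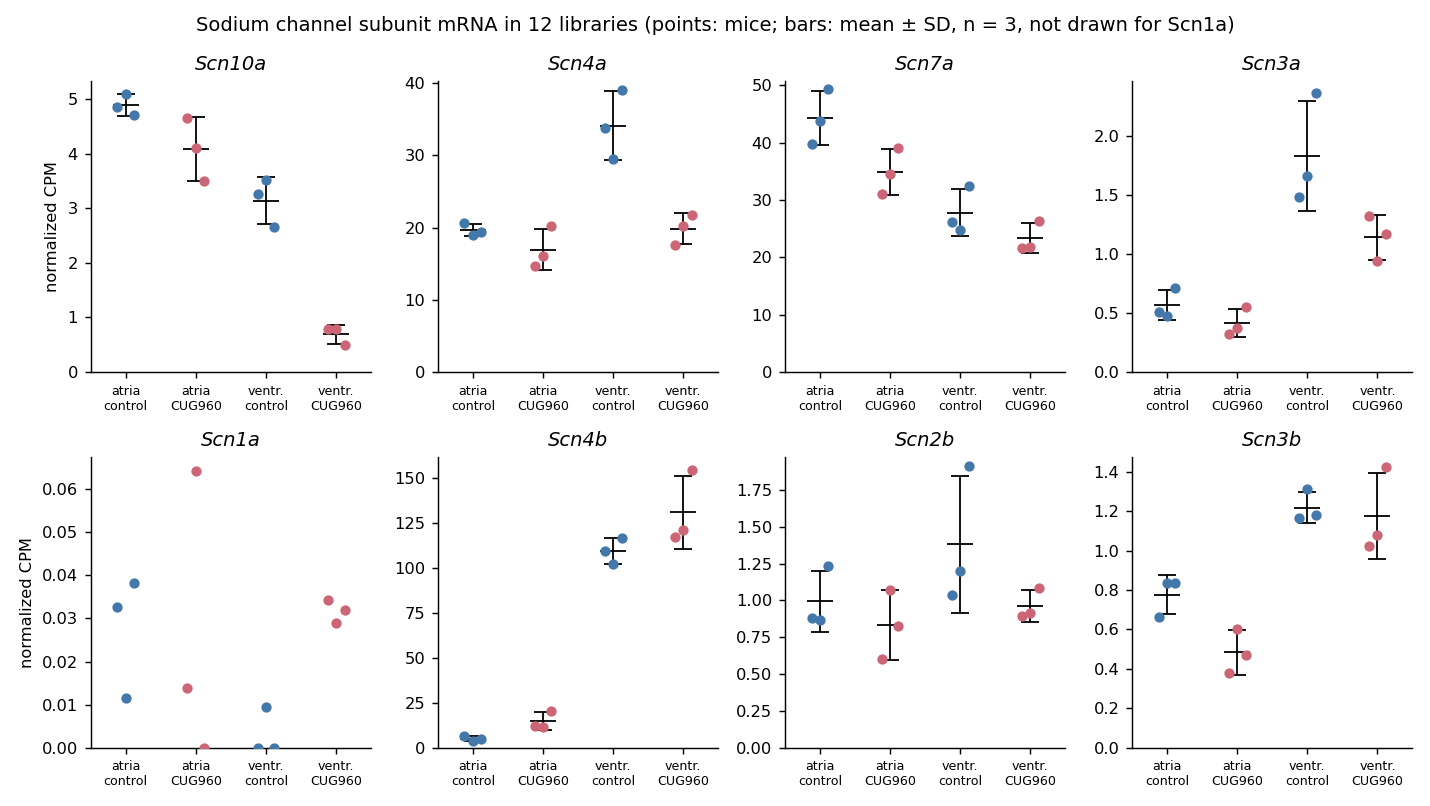
Normalized CPM of each of the 8 subunits in 12 libraries, with 1 panel per gene on its own linear axis, each point a mouse, and bars for mean ± SD of 3 mice except for Scn1a. In ventricles Scn10a lies between 2.66 and 3.51 CPM in controls and between 0.496 and 0.790 CPM in CUG960 +dox mice, and in atria Scn4b lies between 3.53 and 6.42 CPM in controls and between 11.5 and 20.5 CPM in CUG960 +dox mice.

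**Figure D3:**
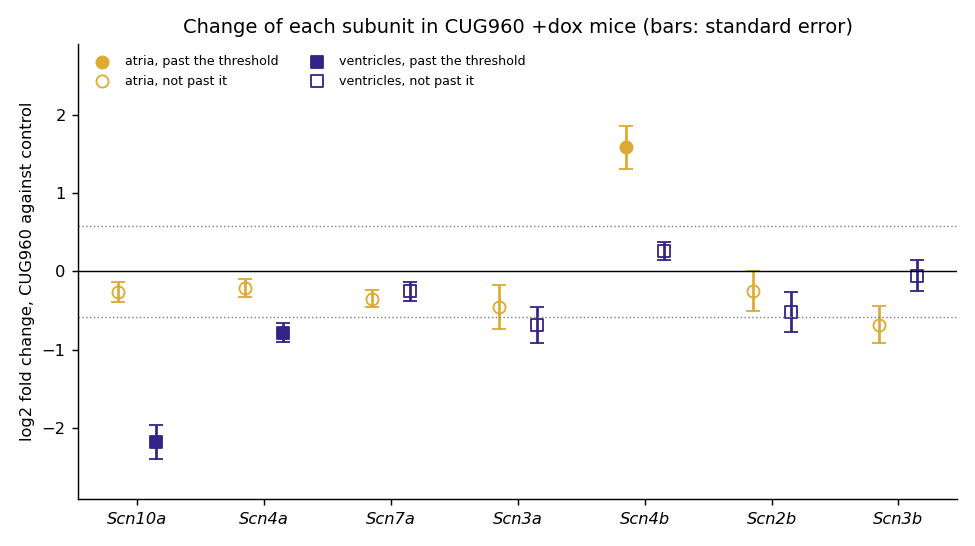
Log2 fold change of 7 subunits in CUG960 +dox mice against MHCrtTA +dox controls, with circles for atria, squares for ventricles and bars for the standard error. Filled symbols passed the test and the fold limit of 1.5 (dotted lines), and they are Scn10a and Scn4a in ventricles and Scn4b in atria.

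Between chambers, most of the subunits differed in control mice. Scn4b, Scn3a, Scn4a and Scn3b were higher in ventricles and Scn7a and Scn10a higher in atria, so that 6 of 7 members were called, beside 6420 of 18327 genes (35.0%). Scn4b differed most, 22.3-fold higher in ventricles (log2 fold change 4.48, standard error 0.26, adjusted P value 1.5e-08). Scn3a was 3.24-fold, Scn4a 1.73-fold and Scn3b 1.57-fold higher in ventricles, with adjusted P values of 0.000111, 0.000152 and 0.0183. Scn7a was 1.59-fold and Scn10a 1.56-fold higher in atria (adjusted P values 0.000440 and 0.00638). Scn10a was not called without V334, nor Scn3b without V327 or V333, at log2 fold changes of −0.55, 0.58 and 0.64. Scn2b was the member that did not pass (log2 fold change 0.48, adjusted P value 0.147).

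In CUG960 +dox mice, 4 of 7 members differed between chambers, beside 6074 of 18327 genes (33.1%). Scn4b was 8.90-fold, Scn3a 2.76-fold and Scn3b 2.42-fold higher in ventricles, with adjusted P values of 1.94e-07, 0.000448 and 0.000241. Scn10a was 5.89-fold higher in atria (log2 fold change −2.56, standard error 0.19, adjusted P value 1.34e-07). Scn7a was higher in atria by just under the fold limit (log2 fold change −0.58, adjusted P value 0.00138). Scn4a, with 19.9 CPM in ventricles and 17.0 CPM in atria, and Scn2b did not pass, with adjusted P values of 0.149 and 0.540.

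Whether the change differed between chambers was tested as the interaction of chamber and genotype over all 12 libraries, which uses the same libraries as the comparisons above. Scn10a was called, 1 of 7 members beside 253 of 18327 genes (1.38%). Its log2 fold change in ventricles minus that in atria was −1.92 ± 0.25 (SE) with an adjusted P value of 0.00253. Within each mouse, Scn10a in atria was 1.49, 1.45 and 1.77 times the ventricular CPM in V327, V333 and V334, and 5.91, 5.20 and 7.05 times in V119, V120 and V123. The lowest CUG960 ratio was thus well above the highest control ratio, beside 19.3% of all genes with ratios that did not overlap.

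Scn4b had an interaction of −1.32 (standard error 0.32), which did not pass without a block for the mouse (adjusted P value 0.0703) and passed with it (adjusted P value 0.0133). Its log2 ratio of ventricles to atria within a mouse was 4.51 ± 0.388 in controls and 3.19 ± 0.252 in CUG960 +dox mice, without overlap. Over all genes, 19.3% had ratios that did not overlap between genotypes. The ratios of Scn4a, 0.79 ± 0.199 and 0.24 ± 0.116, and of Scn3b, 0.65 ± 0.158 and 1.26 ± 0.392, did not overlap between genotypes, but their interactions of −0.57 and 0.63 did not pass (adjusted P values 0.185 and 0.427). The ratios of Scn3a, Scn7a and Scn2b overlapped, and their interactions had adjusted P values of 0.870, 0.896 and 0.847.

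**Figure D4:**
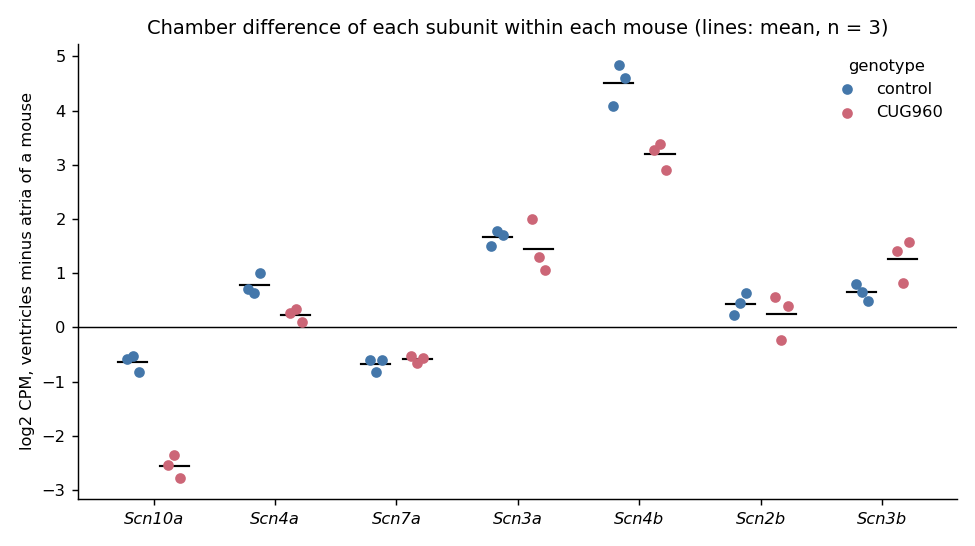
Log2 CPM in ventricles minus log2 CPM in atria of the same mouse for 7 subunits, with each point a mouse, lines for the mean of 3 mice and color for genotype. Values above 0 are higher in ventricles. The genotypes are apart for Scn10a, Scn4a, Scn4b and Scn3b and overlap for Scn7a, Scn3a and Scn2b, beside 19.3% of all genes apart.

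Sodium channels work in complexes with cytoplasmic and membrane partners, and 46 such genes were read beside the subunits. In atria 46 were tested and 2 rose, Fgf13 and Sntb1, and in ventricles 45 were tested, of which Sntb1 rose and Fgf11 fell. The median log2 fold change was −0.03 in atria and 0.07 in ventricles, beside −0.01 over all genes in each, and the genotypes did not overlap for 24 and 20 of them. The shares over every tested gene were 5.49% called in atria and 4.75% in ventricles, and 35.7% and 31.2% without overlap. Between chambers, 18 of 46 differed in controls, 9 in each direction, and 17 of 46 in CUG960 +dox mice, with 9 higher and 8 lower in ventricles, beside 35.0% and 33.1% of all genes tested. Gja1, the main gap junction protein of working myocardium, was the 1 partner of 46 with a called interaction, beside 1.38% of all genes. Without V327, 0 partners had a called interaction.

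The fibroblast growth factor homologous factors Fgf11, Fgf12, Fgf13 and Fgf14 bind the α subunit's tail and shift inactivation. Fgf13 had 27.4, 28.0 and 25.3 CPM in control atria of V327, V333 and V334 and 39.2, 39.3 and 43.4 CPM in atria of V119, V120 and V123. The groups lay well apart, and the log2 fold change was 0.60 ± 0.07 (SE) with an adjusted P value of 0.00154, near the fold limit. Without V123 or V334 it was under that limit, at 0.54 and 0.56. In ventricles it was at 51.3 ± 1.07 and 58.7 ± 3.69 CPM (log2 fold change 0.20, adjusted P value 0.132). Fgf12 was almost confined to atria, with 109 CPM in control atria and 1.31 CPM in control ventricles, and was not called in either genotype comparison (126 and 1.79 CPM in CUG960 atria and ventricles, adjusted P values 0.114 and 0.271). Fgf11 fell in ventricles from 4.51 ± 0.496 to 2.92 ± 0.110 CPM (log2 fold change −0.62, adjusted P value 0.0183), a call lost without V120, V123 or V334. It was at 13.4 and 10.6 CPM in atria, not called (adjusted P value 0.0567). All 4 genes differed between chambers in controls, with Fgf13 higher in ventricles and the other 3 higher in atria.

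Of 11 anchoring and scaffold genes, 1 was called in each chamber, beside 5.49% of all genes in atria and 4.75% in ventricles. It was Sntb1, a syntrophin that links membrane proteins to dystrophin, in both. Of the 11, 7 in atria and 5 in ventricles had an unadjusted P value under 0.05, beside 30.2% and 25.7% of all genes. Sntb1 had 1.98, 1.31 and 2.53 CPM in ventricles of V327, V333 and V334 and 5.89, 4.33 and 4.95 CPM in ventricles of V119, V120 and V123. The genotypes did not overlap, and the log2 fold change was 1.38 (standard error 0.23, adjusted P value 0.00655). In atria it rose from 0.862 ± 0.114 to 1.502 ± 0.207 CPM (log2 fold change 0.80, adjusted P value 0.0242). The atrial call was lost when any 1 of V120, V123, V327, V333 and V334 was left out, at log2 fold changes of 0.70 to 0.89 and adjusted P values of 0.0514 to 0.0854. No member of the trafficking and turnover list (7 genes), the kinases, phosphatases and calcium sensors (11 genes), the adhesion partners of β subunits (8 genes, of which 7 were tested in ventricles) or the proteases that cut β subunits (5 genes) was called by edgeR between genotypes in either chamber. Unadjusted P values were under 0.05 for 5, 7, 3 and 0 of them in atria and for 4, 6, 2 and 0 in ventricles, beside 30.2% and 25.7% of all genes in these comparisons. DESeq2 called 1, an adhesion partner in atria (Nfasc).

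Among 15 transcription factors known from cardiac chamber or conduction system programs, 1 of 14 tested in atria and 0 of 15 in ventricles were called by edgeR between genotypes, beside 5.49% and 4.75% of all genes. An unadjusted P value under 0.05 was found for 6 of the 14 in atria, beside 30.2% of all genes, and for 5 of the 15 in ventricles, beside 25.7%, and DESeq2 called 2 and 1, beside 5.90% and 5.65% of all genes. Hey2, a transcriptional repressor known from the ventricular compact wall, fell in atria from 2.13 ± 0.0506 to 1.34 ± 0.317 CPM (log2 fold change −0.67, adjusted P value 0.0494). It was just past the threshold, and lost the call when any 1 mouse other than V123 was left out. In ventricles it was at 4.65 and 3.24 CPM, with the same adjusted P value but a fold change under 1.5. In atria 12 of the 14 were below 0, with a median of −0.26, and in ventricles 7 of 15 with a median of 0.04. Between chambers 11 of 15 differed in controls and 10 of 15 in CUG960 +dox mice, beside 35.0% and 33.1% of all genes tested.

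Markers of further cell types were read in the same libraries, in which 5.49% of all genes in atria and 4.75% in ventricles were called and 30.2% and 25.7% had an unadjusted P value under 0.05. Of 6 endothelial markers, 1, Pecam1, was called lower in atria, and in ventricles edgeR and DESeq2 called 0, with all 6 at an unadjusted P value under 0.05. The sums were 663, 682 and 565 CPM in control atria, 444, 497 and 462 CPM in CUG960 atria, 911, 736 and 875 CPM in control ventricles and 633, 598 and 663 CPM in CUG960 ventricles. Endothelial sums were thus lower in CUG960 +dox mice in both chambers, without overlap. Of 5 leukocyte markers, led by Lyz2, edgeR called 0 in either chamber, with 0 and 1 at an unadjusted P value under 0.05 in atria and ventricles, and DESeq2 called 1 in ventricles (Ptprc). V334 atria stood out with a sum of 503 CPM beside 201 to 264 CPM in the other atria. Of 4 smooth muscle markers, Tagln was called higher in CUG960 atria, and Tagln and Myh11 lower in CUG960 ventricles. Of 6 atrial cardiomyocyte markers, edgeR and DESeq2 called 0 in atria, with 2 at an unadjusted P value under 0.05, and in ventricles Nppa rose from 62.6 to 154 CPM and Bmp10 fell from 2.86 to 0.172 CPM. Their part in the levels of the subunits was not tested.

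The genes whose levels were most like those of the subunits were found by Pearson's r of log2 CPM over the 12 libraries, and by r of deviations from the chamber means, since libraries of the same chamber lie together. For Scn10a they were Maged2, Gstm2 and Rbpms2 (r between 0.966 and 0.971), and by deviations Acot7, Maged2 and Egflam (0.957 to 0.971). Acot7, an acyl-CoA thioesterase, had a log2 fold change of −1.29 in ventricles and −0.30 in atria, beside −2.18 and −0.26 for Scn10a. For Scn4b they were Abcd3, Gyg and Stau2 (0.994 to 0.995), and by deviations Bves, Tmem135 and Gyg (0.960 to 0.974). Their atrial log2 fold changes lay between 0.26 and 0.46, beside 1.58 for Scn4b, so that they were alike in pattern and not in size.

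For Scn4a the genes were Igdcc4, Wdr36 and C2cd2 (0.958 to 0.970), and by deviations Vwa8, Lrrcc1 and Igdcc4 (0.958 to 0.960). For Scn7a they were Pdpk1, Mmp19 and Fam168a (0.967 to 0.970), and by deviations Man2a1, Eps15 and Pros1 (0.942 to 0.955). Among those most like Scn3a were Slc24a3 and Ppip5k2 (0.981 to 0.983) and by deviations Wdr37 and Serpini1. Those most like Scn3b were Pdlim5, Tmem74b and Gm12439 (0.961 to 0.963) and by deviations Gm12439, 1500017E21Rik and Rab33a. Scn2b had the lowest values, with Nufip2, Tes and Gpld1 (0.878 to 0.898) and by deviations Tor3a, Tes and Cd163. Each r is a description over 12 libraries that share 4 groups, and was among the highest of some 13111 genes compared.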

How the data were processed

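RNA of atria and ventricles of the same mice was sequenced as poly(A)-selected, stranded paired-end libraries. Per the labels and the study's methods, the authors aligned reads to mm10 (GRCm38) and estimated expected counts per gene with RSEM 1.3.1. They deposited these as 1 table, without scaling, and the counts were rounded to whole numbers here before use. RSEM shares reads among similar genes by estimation. Of its 51826 entries, 92 had a symbol already listed. Gene models and transcripts were taken from GENCODE M21, a later annotation than that used for counting.

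Genes were filtered with filterByExpr, scaled by TMM and compared by the quasi-likelihood test of edgeR 4.0.16 in R 4.3.3, with Benjamini-Hochberg adjustment over all genes tested. Standard errors of log2 fold changes were worked back from this test, as the absolute log2 fold change over the square root of its F statistic. Genotypes were compared within 6 libraries of a chamber. Chambers and the interaction were fitted over 12 libraries in 4 groups, the interaction without a fold limit. Alternatives were RLE size factors, upper quartile scaling, other filters, DESeq2 1.42.0, other fold limits (the study's text gives 1.5 as a fold change and, in its methods, as a log2 fold change), 12 libraries in 1 fit, each mouse left out in turn, and a block for the mouse. The mouse pairs the chambers, since both came from the same animal. After subtraction of group means, deviations across genes had r of 0.030 to 0.135 between chambers of 1 mouse and of −0.141 to 0.054 between those of different mice. Python 3.11.15, pandas 2.3.3 and matplotlib 3.10.9 were used for tables and figures.

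The steps were tested on simulated data with 100 genes changed at each fold size. At a log2 change of 1, edgeR recovered 67 in atria, 75 in ventricles and 55 for the interaction, and at 2 it recovered 92, 88 and 83. It made 12, 8 and 11 false calls among 17359, 16665 and 17995 genes.

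The members and all lists were chosen with earlier results of these data known. Named genes were the 8 members, partners and transcription factors called between genotypes with Fgf12 and Fgf13 in any case, and the 3 genes most like each member of at least 0.1 CPM among genes of at least 1 CPM (log2 CPM with a prior count of 2). Some genes that this rule chose are not named here. Gja1, Nfasc and the marker genes named fall outside this rule and were picked with their values in view. Fgf14 also falls outside it and is named as a member of its list.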

Additional observations from a re-analysis of the deposited data

Results flagged for a closer look

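Scn10a was singled out because its change differed between chambers by a test of the difference itself. The log2 fold change in CUG960 +dox mice against controls was −2.18 in ventricles and −0.26 in atria, and the interaction of −1.92 had an adjusted P value of 0.00253 by edgeR. Each of the 3 CUG960 +dox mice had a higher ratio of atria to ventricles than each of the 3 controls. Ratios did not overlap between genotypes for 19.3% of all genes. The ratios come from the same libraries as the interaction and are no separate evidence for it.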

How the results depend on the processing

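Over the members' log2 fold changes in 5 comparisons, 420 alternative values were computed, and 404 kept their direction and side of the threshold, 3 lost the call, 9 gained it and 4 changed sign. The calls of Scn10a and Scn4a in ventricles, Scn4b in atria and the Scn10a interaction held in each alternative fit and without each mouse, when a limit of 1.5 on the log2 scale, which Scn4a misses, is left aside. That limit left 216 genes in atria, 199 in ventricles, and 2462 and 2361 between chambers in controls and CUG960 +dox mice, with 1 member in ventricles and 2 in each chamber comparison, and 0, 0, 6 and 8 partners. Without a fold limit there were 2573, 1680, 10268 and 9952 genes and 9, 8, 32 and 36 partners. The interaction gave 660 genes and 2 partners by DESeq2, and between 74 (without V333) and 131 genes without 1 mouse. Scn4b was a called member beside Scn10a, for 2 in all, with the block, by DESeq2 and with no filter on low counts (adjusted P values 0.0133, 0.0307 and 0.00389). In the chamber comparisons the block gave 6367 and 6045 genes and changed no call of a member. Without 1 mouse, 0 to 2 partners were called in atria, 1 to 3 in ventricles and 0 to 1 for the interaction. Hey2 in atria was not called with RLE size factors. Between chambers in CUG960 +dox mice Scn7a, just under the fold limit, gained a call without V119 or V123, with upper quartile scaling and with either other filter. Values near 0 changed sign without 1 mouse for Scn3b in ventricles (−0.213 to 0.0407) and Scn3a in the interaction (−0.509 to 0.00915). The causes were not tested.

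Each group had 3 mice. Over all genes, replicate libraries differed by more than counting noise, which was not tested for single members, and for rare members such as Scn3a, with 46 to 75 counts in CUG960 atria, depth limits precision too. Nothing in the labels tells extraction or sequencing batches apart. Counts per gene hold no splicing information.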
